A study of Mus musculus with 4 samples.

Results

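The genes described here are 32 genes of neurons: parts of the machinery that releases neurotransmitter, proteins of the neuronal cytoskeleton and of neuronal identity, genes of excitatory and of inhibitory transmission, and 1 protein of secretory granules. They were chosen by symbol from the 49993 genes counted in each library. The 7 release genes were Snap25, Syt1, Stx1a, Vamp2, Syp, Syn1 and Syn2, and the 8 genes of cytoskeleton and identity were Rbfox3, Tubb3, Map2, Nefl, Nefm, Nefh, Stmn2 and Thy1. The 10 excitatory genes were Slc17a7, Slc17a6, Camk2a, Camk2b, Dlg4, Gria1, Gria2, Grin1, Grin2a and Grin2b, the 6 inhibitory genes were Gad1, Gad2, Slc32a1, Pvalb, Sst and Npy, and the granule gene was Chga. All 32 were found and all 32 passed the filter on low counts.

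RNA was sequenced from CD11b+ cells, labelled microglia, that had been taken from the brains of mice 10 months old by magnetic sorting. CD11b is a surface protein of microglia and other myeloid cells, which neurons are not known to carry. The genotype APP/PS1+ asrij+/+ is called AD (2 libraries), and the genotype APP/PS1+ asrij-/-, with a constitutive deletion of asrij (gene symbol Ociad1), is called AD/KO (2 libraries). Mice of both genotypes carried the APP/PS1 transgenes, which make brain amyloid and serve as a model of Alzheimer's disease, so neither group is free of amyloid. The promoters of the transgenes, the number of animals behind a library and the batches are not given in the sources used here. Nothing in the labels says that the 2 libraries of a group came from separate animals, so p-values measure only the spread between these libraries, which may be technical.

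At a synapse, a calcium signal makes vesicles fuse with the membrane of the sending neuron, through a complex of SNARE proteins and the calcium sensor synaptotagmin. Excitatory neurons of the brain load their vesicles with glutamate, which opens AMPA and NMDA receptors held in place by a scaffold on the receiving side. Inhibitory neurons make GABA from glutamate and load it through a transporter of their own, and many of them also carry a marker peptide or a calcium-binding protein. These genes are textbook genes of neurons, and a microglial preparation holds them as a small part of its RNA. Whether that RNA came from neurons or their fragments, or from the sorted cells themselves, was not tested.

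The promoter windows below are of Syn1, Slc17a7 and Npy, which each hold a motif marked in capitals, and are given as sequence context only. A link between these sequences and the members' levels was not tested. The windows are from RefSeq on GRCm38.p6, hold the 250 bases before the annotated start, and run 5′ to 3′ along the gene's strand. Windows of this kind were found for 21 of the 32 members (27 windows, since some genes have more than 1 start). Capitals mark the cAMP response element TGACGTCA in Syn1 and the GC box CCCGCCC, on either strand, in Slc17a7 and Npy. The windows lie at chrX:20920919-20921168 on the minus strand for Syn1, at chr7:45163671-45163920 on the plus strand for Slc17a7 and at chr6:49822460-49822709 on the plus strand for Npy.
Syn1: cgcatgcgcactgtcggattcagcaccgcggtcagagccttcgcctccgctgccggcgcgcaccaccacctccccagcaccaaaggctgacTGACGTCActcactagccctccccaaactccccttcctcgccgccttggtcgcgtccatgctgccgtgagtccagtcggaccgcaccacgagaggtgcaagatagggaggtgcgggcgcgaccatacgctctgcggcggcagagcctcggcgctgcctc
Slc17a7: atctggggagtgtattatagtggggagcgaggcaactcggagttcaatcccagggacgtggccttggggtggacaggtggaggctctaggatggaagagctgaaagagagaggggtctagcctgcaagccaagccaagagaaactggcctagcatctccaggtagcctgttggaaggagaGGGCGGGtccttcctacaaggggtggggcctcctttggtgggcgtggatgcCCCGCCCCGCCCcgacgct
Npy: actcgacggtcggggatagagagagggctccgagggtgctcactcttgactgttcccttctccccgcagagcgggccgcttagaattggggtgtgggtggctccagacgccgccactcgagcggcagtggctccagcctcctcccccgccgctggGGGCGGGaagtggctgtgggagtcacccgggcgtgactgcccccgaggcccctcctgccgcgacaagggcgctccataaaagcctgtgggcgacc
The first base of the match lay at -159 in Syn1 and at -95 in Npy, counted back from the start. Slc17a7 held 3 matches, at -70, -19 and -14, of which the last 2 overlap. TGACGTCA, which reads the same on both strands, stood in 2 of the 27 member windows (Syn1 and Sst) and in 1.55% of all 32851 windows. CCCGCCC stood in 8 of the 27 (Camk2b, Chga, Map2, Npy, Slc17a7, Stx1a, Syp and Tubb3) and in 23.4% of all windows. A match is a stretch of letters, not a measured binding site.

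The libraries held 13102622 to 19810076 counts. Csf1r and Cx3cr1, genes of microglia, stood between 962 and 5529 CPM (counts scaled to the size of the library), and none of 15 microglial markers was at 0 in any library. Ociad1 held 691 and 1032 counts in the AD libraries and 746 and 592 in the libraries labelled AD/KO. In CPM it stood at 50.2 and 63.4 in AD and at 38.9 and 32.1 in AD/KO, where its mean was 62.5% of the AD mean. Both AD/KO libraries were thus below both AD libraries, as in 4645 of the 21439 genes tested. The log2 fold change of Ociad1 was -0.68 (SE 0.29, edgeR quasi-likelihood test with Benjamini-Hochberg adjustment, adjusted p = 0.680). The deposited counts thus did not show a loss of the deleted gene, and each direction below is that of the labels. AD replicate 2 stood apart from the other 3 libraries in 9 neutrophil markers (summed level 4520 CPM against 336 to 529) and in Xist, an RNA of female cells (1391 counts against 3 to 15), and the sex of the animals is not given in the sources used here. Across 21439 genes, 0 passed an adjusted p of 0.05 by edgeR (1072 had an unadjusted p below 0.05). DESeq2 called 91 of the 19705 genes to which it gave an adjusted p.

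Every one of the 32 neuronal genes was lowest in AD replicate 1 and highest in AD/KO replicate 2, with AD replicate 2 and AD/KO replicate 1 between them. Together they made up 0.117% of the counts of AD replicate 1 (95% Wilson interval 0.115% to 0.119%) and 0.333% (0.330% to 0.335%) of those of AD replicate 2. They made up 0.301% (0.298% to 0.303%) of AD/KO replicate 1 and 0.798% (0.794% to 0.802%) of AD/KO replicate 2. Reads carry no molecular identifiers, so the intervals cover counting error only. The libraries of each genotype thus differed by far more than counting error, and the group ranges overlapped: AD/KO replicate 1 lay below AD replicate 2. Among all genes tested, 31.1% had the same pair of libraries as lowest and highest. In a bulk sample, fewer cells of a type and less RNA per cell cannot be told apart.

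On the scale of summed CPM, the members reached 1111 and 3257 in the AD libraries and 3026 and 8580 in the AD/KO libraries, which is 2184 ± 1517 against 5803 ± 3927 (mean ± SD, n = 2 each), a ratio of means of 2.66. The step between the libraries of 1 genotype was as large as the step between the genotypes. AD replicate 2 held 2.93 times the sum of AD replicate 1, and AD/KO replicate 2 held 2.84 times the sum of AD/KO replicate 1. With 2 libraries in each group, an exact two-sided permutation test of a single value cannot go below p = 0.333.

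**Figure D1:**
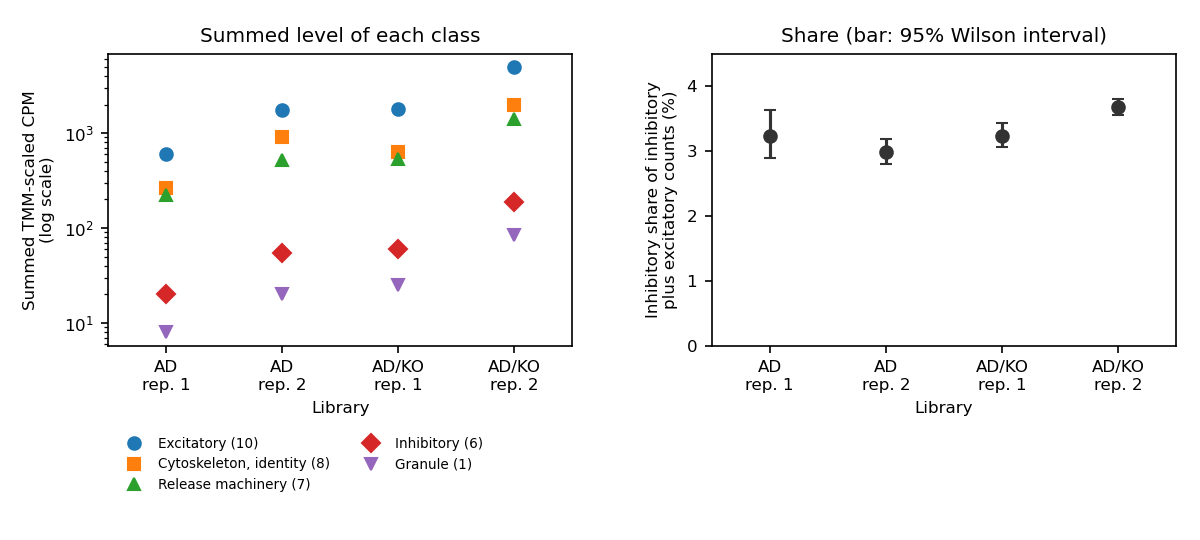
The left panel shows the summed level of each group of neuronal genes (CPM, log axis) in the 4 libraries, 1 point per library and group. In every group AD replicate 1 is lowest and AD/KO replicate 2 highest, and the right panel shows the inhibitory share of inhibitory plus excitatory counts (percent, bars are 95% Wilson intervals), between 2.99% and 3.68%.

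Over the 7 release genes the log2 fold change had a median of 1.47 (range 1.0 to 1.71), and their summed level was 374 ± 211 CPM in AD and 972 ± 623 CPM in AD/KO. In 3 of the 7, both AD/KO libraries were above both AD libraries (Stx1a, Vamp2 and Syp), an order found in 20.3% of all genes tested. Snap25, a SNARE protein of the plasma membrane, stood at 34.5 and 109 CPM in AD and at 93.9 and 264 CPM in AD/KO. Syt1, the calcium sensor of fast release, stood at 26.8 and 103 CPM in AD and at 96.0 and 297 CPM in AD/KO. In both genes AD replicate 2 was above AD/KO replicate 1, so the groups overlapped. Their log2 fold changes were 1.32 (SE 0.76) for Snap25 and 1.59 (SE 0.85) for Syt1.

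Stx1a, the syntaxin partner of Snap25, stood at 14.7 and 25 CPM in AD and at 37.5 and 92.1 CPM in AD/KO. Its groups did not overlap, and its log2 fold change of 1.71 (SE 0.55) was the largest of the release genes. Vamp2, the SNARE protein of the vesicle, stood at 85.2 and 127 CPM in AD and at 147 and 278 CPM in AD/KO. Vamp2 also had the smallest step between the AD libraries among all members, a log2 ratio of 0.58, and its log2 fold change was 1.0 (SE 0.46). The vesicle protein Syp stood at 27.7 and 59.4 CPM in AD and at 64.1 and 200 CPM in AD/KO, with a log2 fold change of 1.60 (SE 0.69). The synapsins, which tether vesicles in reserve, overlapped between genotypes: Syn1 stood at 21.4, 53.5, 51.5 and 152 CPM in AD replicates 1 and 2 and AD/KO replicates 1 and 2. Syn2 stood at 14.8, 46.8, 41.3 and 130 CPM in the same order.

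The 8 genes of cytoskeleton and identity were the group with the lowest median log2 fold change, 1.33 (range 0.90 to 1.83), and summed to 583 ± 453 CPM in AD and 1293 ± 943 CPM in AD/KO. Both AD/KO libraries were above both AD libraries in 3 of them (Tubb3, Nefh and Thy1), an order found in 20.3% of all genes tested. Rbfox3 (chr11:118489760-118911597, GRCm38.p6) encodes NeuN, a splicing factor used to mark neuronal nuclei, and stood at 51.6 and 292 CPM in AD and at 155 and 486 CPM in AD/KO. Its value in AD replicate 2 was well above that in AD/KO replicate 1, and its log2 fold change of 0.90 (SE 0.98) was the smallest of the members. Without AD/KO replicate 2 that value turned to -0.14. Map2, a microtubule protein of dendrites, stood at 154 and 466 CPM in AD and at 327 and 1081 CPM in AD/KO, so its groups overlapped as well (log2 fold change 1.18, SE 0.84).

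Of the neurofilaments, which fill the axon, Nefl stood at 29.3 and 66.0 CPM in AD and at 59.2 and 163 CPM in AD/KO, and Nefm at 1.45 and 8.54 CPM against 6.99 and 19.7 CPM, with overlap in both. Nefh stood at 5.95 and 10.9 CPM in AD and at 14.8 and 39.3 CPM in AD/KO, without overlap, and had a log2 fold change of 1.68 (SE 0.62). Tubb3, the neuronal tubulin, stood at 5.01 and 13 CPM in AD and at 14.1 and 37.8 CPM in AD/KO. The microtubule regulator Stmn2 stood at 7.40 and 22.6 CPM in AD and at 19.0 and 52.3 CPM in AD/KO, with overlap. Thy1, a surface protein of neurons that T cells also carry, stood at 7.77 and 23.5 CPM in AD and at 30.7 and 80.7 CPM in AD/KO, and its log2 fold change of 1.83 (SE 0.73) was the largest of this group.

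**Figure D2:**
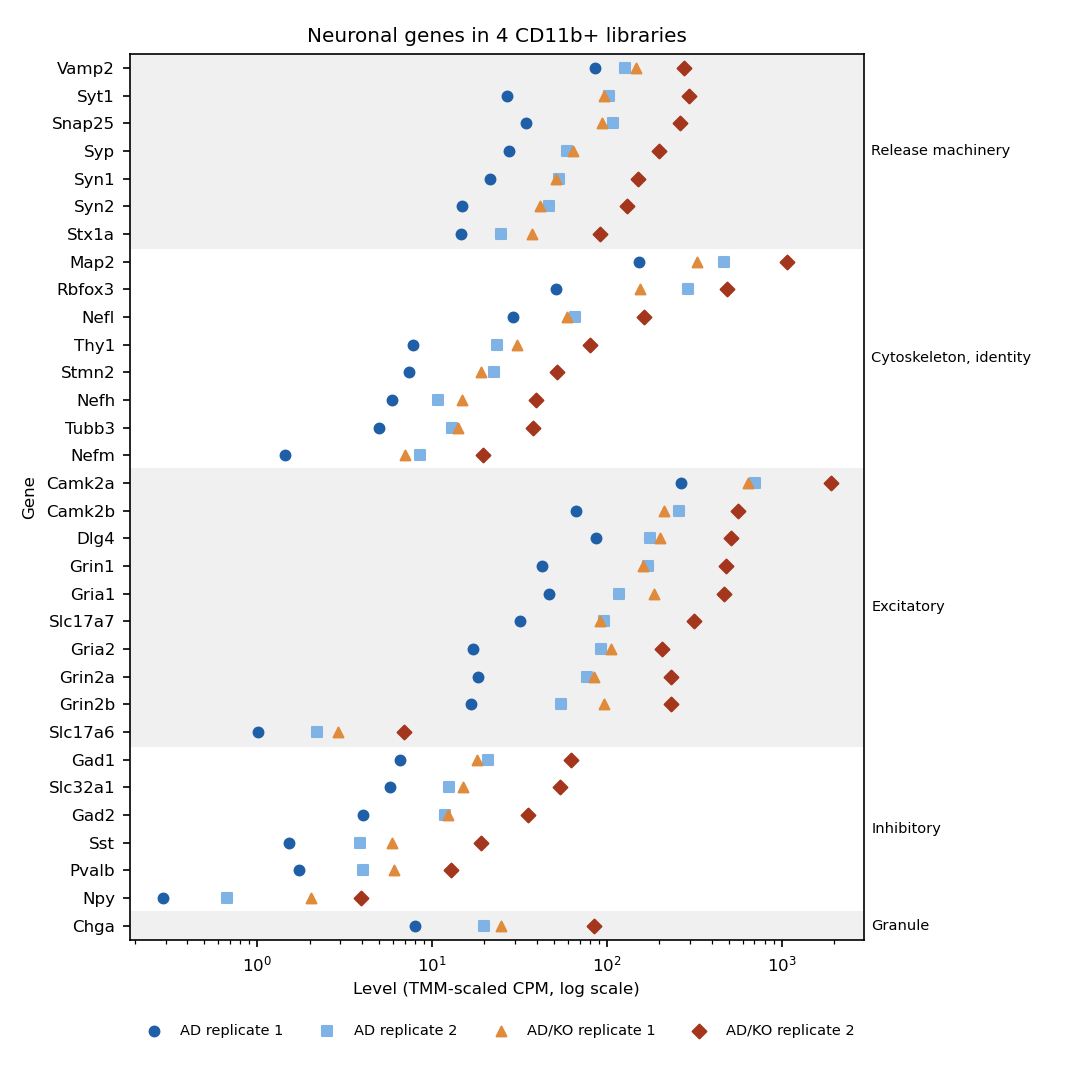
Level of each of the 32 genes (CPM, log axis) in the 4 libraries, 1 point per library, ordered by group. CPM is not scaled to transcript length. In all 32 genes AD replicate 1 is the lowest point and AD/KO replicate 2 the highest.

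Over the 10 excitatory genes the log2 fold change had a median of 1.59 (range 1.26 to 2.20), and in 6 of the 10 both AD/KO libraries were above both AD libraries (20.3% of all genes tested). They summed to 596 and 1756 CPM in the AD libraries (1176 ± 821) and to 1783 and 4934 CPM in the AD/KO libraries (3359 ± 2228). Slc17a7 encodes VGLUT1, the glutamate transporter of cortical vesicles, and stood at 32.1 and 97.1 CPM in AD and at 91.1 and 317 CPM in AD/KO. Slc17a6, the VGLUT2 transporter found in many subcortical neurons, stood at 1.02 and 2.21 CPM in AD and at 2.92 and 6.95 CPM in AD/KO. The groups overlapped for Slc17a7 and not for Slc17a6. Of the counts of both transporters, Slc17a6 held 3.07% and 2.23% in the AD libraries and 3.10% and 2.15% in the AD/KO libraries, and the 95% Wilson intervals of the genotypes overlapped.

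Camk2a, the alpha subunit of a calcium-dependent kinase of excitatory neurons, stood at 267 and 707 CPM in AD and at 639 and 1908 CPM in AD/KO, so AD replicate 2 was above AD/KO replicate 1 (log2 fold change 1.39, SE 0.81). Camk2b, the beta subunit, stood at 67.1 and 258 CPM in AD and at 214 and 567 CPM in AD/KO, also with overlap. The scaffold Dlg4, which encodes PSD-95, stood at 87.0 and 177 CPM in AD and at 202 and 515 CPM in AD/KO, without overlap (log2 fold change 1.44, SE 0.64).

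Among the receptor subunits, Gria1 and Grin2b differed most between genotypes. The AMPA receptor subunit Gria1 (chr11:57011571-57330244) stood at 46.6 and 117 CPM in AD and at 186 and 466 CPM in AD/KO, and its log2 fold change was 2.0 (SE 0.69). The NMDA receptor subunit Grin2b (chr6:135713221-136173615) stood at 16.8 and 54.8 CPM in AD and at 95.9 and 232 CPM in AD/KO, and its log2 fold change was 2.20 (SE 0.75). For both genes the genotypes did not overlap. Gria2, the subunit that limits calcium entry through AMPA receptors, stood at 17.2 and 93.2 CPM in AD and at 106 and 208 CPM in AD/KO. Grin2a stood at 18.4 and 76.8 CPM in AD and at 84.2 and 233 CPM in AD/KO. Gria2 and Grin2a thus did not overlap either, while Grin1, the obligatory NMDA subunit, did, at 42.8 and 173 CPM against 162 and 481 CPM.

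The 6 inhibitory genes had the largest median log2 fold change of the groups of more than 1 gene, 1.81 (range 1.55 to 2.59), and 5 of the 6 did not overlap (20.3% of all genes tested lay in that order). Whether groups of genes differed in their median was not tested. They summed to 20.0 and 54.1 CPM in the AD libraries (37.0 ± 24.1) and to 59.6 and 188 CPM in the AD/KO libraries (124 ± 91.0). Gad1, an enzyme that makes GABA, stood at 6.60 and 21.0 CPM in AD and at 18.2 and 62.5 CPM in AD/KO, and was the gene that overlapped. Its sister enzyme Gad2 stood at 4.06 and 11.9 CPM in AD and at 12.3 and 35.7 CPM in AD/KO, where AD/KO replicate 1 was hardly above AD replicate 2. The vesicular GABA transporter Slc32a1 stood at 5.73 and 12.5 CPM in AD and at 15.1 and 54.2 CPM in AD/KO (log2 fold change 1.92, SE 0.76).

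Of the markers of interneuron classes, Pvalb, a calcium-binding protein of fast-spiking cells, stood at 1.74 and 4.06 CPM in AD and at 6.05 and 12.9 CPM in AD/KO, with both AD/KO libraries above both AD libraries. The peptide gene Sst stood at 1.52 and 3.87 CPM in AD and at 5.94 and 19.1 CPM in AD/KO, and its log2 fold change was 2.21 (SE 0.80). Npy (chr6:49822710-49829507), the gene of neuropeptide Y, held 4 and 11 counts in the AD libraries and 39 and 72 counts in the AD/KO libraries, or 0.29 and 0.676 CPM against 2.03 and 3.91 CPM. Its log2 fold change of 2.59 (SE 0.77) was the largest of all members and rested on the fewest counts. Chga, chromogranin A of dense-core granules, stood at 7.98 and 20.0 CPM in AD and at 24.9 and 84.2 CPM in AD/KO, without overlap (log2 fold change 1.96, SE 0.76).

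The inhibitory share of inhibitory and excitatory counts lay between 2.99% and 3.68% in the 4 libraries, while the level of both groups differed by several fold. The 6 inhibitory genes made up 3.24% (95% Wilson interval 2.89% to 3.64%) of the counts of both groups in AD replicate 1 and 2.99% (2.80% to 3.19%) in AD replicate 2. They made up 3.24% (3.06% to 3.43%) in AD/KO replicate 1 and 3.68% (3.56% to 3.80%) in AD/KO replicate 2, the only library whose interval lay above those of 2 others. The log2 ratio of the sums was -4.96 on average in AD and -4.81 in AD/KO, a difference of 0.15. When only transporters and enzymes were counted, Gad1, Gad2 and Slc32a1 made up 33.1% and 31.4% of their sum with Slc17a7 and Slc17a6 in AD and 32.7% and 32% in AD/KO, a log2 difference of 0.00. With counts per transcript length the log2 ratio was -3.57 and -3.81 in AD and -3.34 and -3.31 in AD/KO, a difference of 0.36 with no overlap. With the median of member log2 CPM in place of sums, the difference was -0.03. Both the size and the sign of the difference thus depended on how the genes were combined.

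No neuronal gene passed an adjusted p of 0.05 in the edgeR quasi-likelihood test of AD/KO against AD (0 of 32, with 0.00% of all genes tested called). The adjusted p ran from 0.680 to 0.742, where Rbfox3 had the highest. DESeq2 called 0 of the 32 as well, with a lowest adjusted p of 0.0823, and 0.462% of the 19705 genes to which it gave an adjusted p. At an unadjusted p below 0.05, 6 of the 32 were higher in AD/KO by edgeR (Npy, Stx1a, Grin2b, Gria1, Sst and Nefh, 18.8%) and 0 were lower, against 2.70% of all genes tested that were higher at that p. By DESeq2, 26 of the 32 were higher at an unadjusted p below 0.05, against 5.48% of the 33724 genes to which it gave a p. Leaving out AD replicate 2, so that AD rested on 1 library, brought 6 members below an adjusted p of 0.05 (Thy1, Gria2, Grin2a, Grin2b, Gad1 and Chga), against 2.28% of all genes tested, and leaving out any other single library brought none.

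All 32 members had a positive log2 fold change, against 47.2% of all genes tested. Their median was 1.58 (range 0.90 to 2.59), against -0.05 over all genes. Both AD/KO libraries were above both AD libraries in 18 of the 32 (56.2%), against the 20.3% of all genes tested. The shared direction over the members is not a set of separate tests, since each gene was read in the same 4 libraries. The median depended on each library. It was 0.61 when AD/KO replicate 2 was left out and 0.98 when AD replicate 1 was, and it was 2.21 in the fit that lacked AD/KO replicate 1 and 2.61 in the fit that lacked AD replicate 2.

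**Figure D3:**
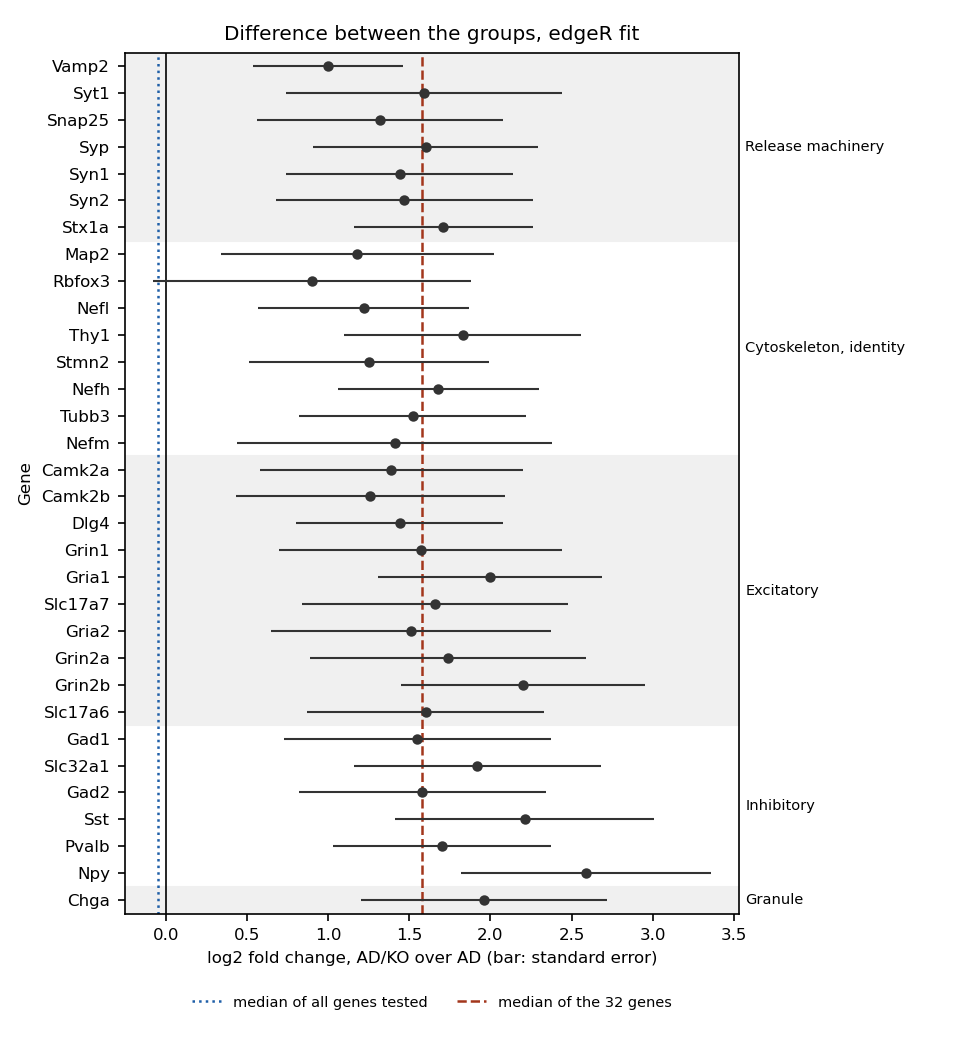
Log2 fold change of AD/KO over AD for each of the 32 genes, with its standard error as bars, grouped by role (edgeR quasi-likelihood fit, 2 libraries per genotype). All 32 values lie above 0, from 0.90 for Rbfox3 to 2.59 for Npy, and no adjusted p is below 0.680.

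A comparison within genotype used no contrast between AD and AD/KO. From AD replicate 1 to AD replicate 2 the members' median log2 ratio was 1.48 (range 0.58 to 2.56), and from AD/KO replicate 1 to AD/KO replicate 2 it was also 1.48 (range 0.92 to 1.85). All 32 were above 0 in both pairs, as were 51.3% of all genes tested in the first and 49.1% in the second. The count of 32 follows from the order of the libraries given above. A CPM at least doubled was found in 29 of the 32 members within AD, in 29 within AD/KO, and in 27 within both. Over all genes tested with a count in both libraries, the upper quartile of the log2 ratio was 0.79 in each pair, which is less than a doubling. The share of all genes that at least doubled within both genotypes was not computed, so the count of 27 has no background beside it. The largest steps within AD were those of Nefm (2.56), Rbfox3 (2.50) and Gria2 (2.44), and the smallest those of Vamp2 (0.58), Stx1a (0.76) and Nefh (0.87).

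Between genotypes, the members' median log2 ratio was 1.51 for AD/KO replicate 1 over AD replicate 1 and 1.56 for AD/KO replicate 2 over AD replicate 2. All 32 were above 0 in both, which follows from the order of the libraries given above and is no further result. Of the 21439 genes tested, 10672 and 10015 were above 0, leaving out genes at 0 in a library of the pair. The medians over all genes were 0.00 and -0.07. AD/KO replicate 1 and AD replicate 2 were set side by side because their summed levels of neuronal transcripts were close (3026 and 3257 CPM). A median near 0 and a mix of signs follow from that choice, and the pair serves only to order the members among themselves. The median log2 ratio of AD/KO replicate 1 over AD replicate 2 was 0.11, with 18 of the 32 members above 0 and 14 below. The 95% counting interval lay wholly above 0 in 13 members, wholly below 0 in 10, and held 0 in 9. Rbfox3 was the member that was farthest below, at -0.91 (interval -0.98 to -0.85), followed by Map2 at -0.51 (-0.56 to -0.46). Npy was farthest above, at 1.59 (0.59 to 2.70), and Grin2b at 0.81 (0.69 to 0.92) and Gria1 at 0.67 (0.59 to 0.75) came next. These intervals hold the counting error of 2 libraries and no spread between animals, so they compare those libraries and not the genotypes.

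**Figure D4:**
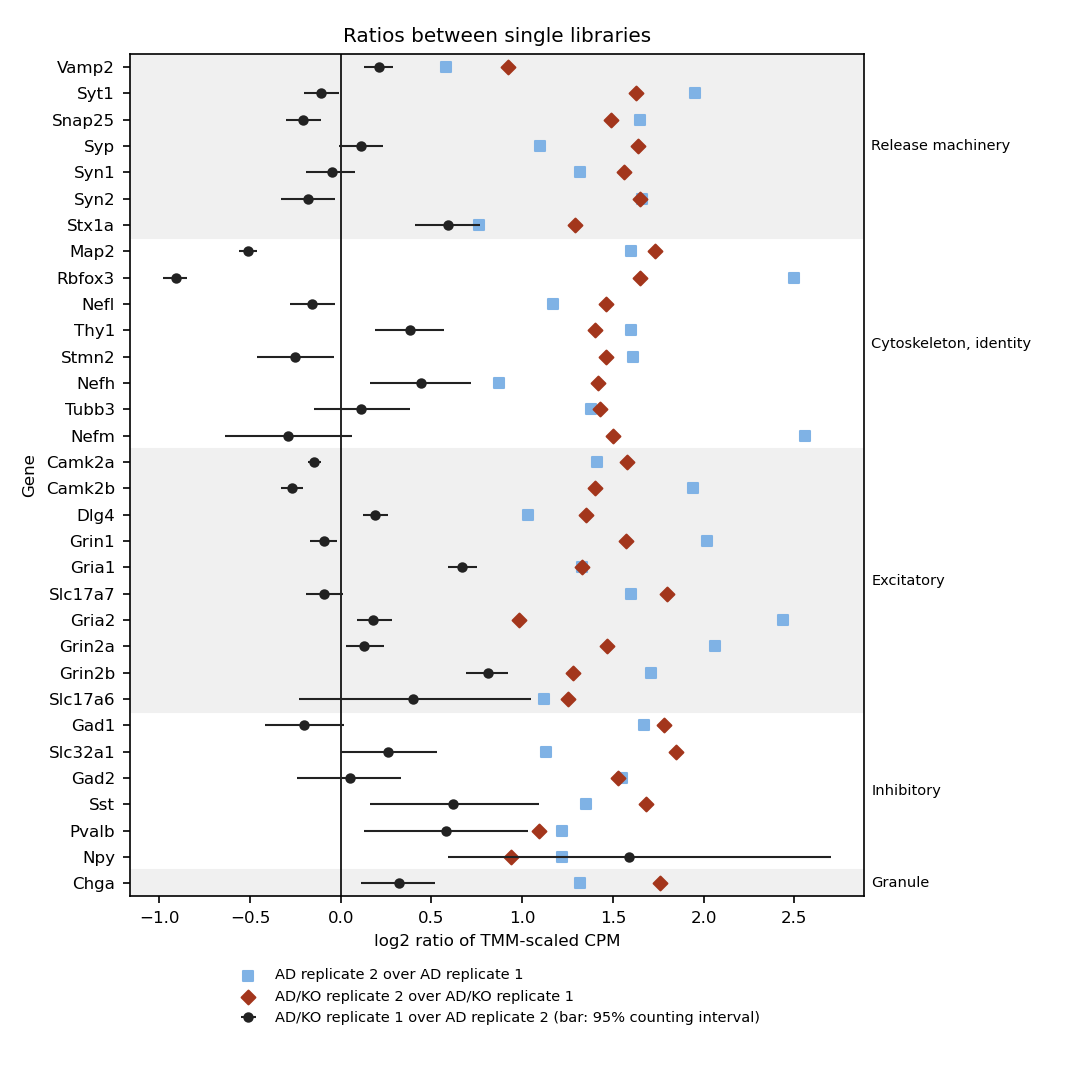
Log2 ratios of CPM between pairs of libraries for each of the 32 genes: AD replicate 2 over AD replicate 1, AD/KO replicate 2 over AD/KO replicate 1, and AD/KO replicate 1 over AD replicate 2. Both within-genotype ratios are above 0 for all 32 genes with a median of 1.48, and the ratio of AD/KO replicate 1 over AD replicate 2, a pair chosen for its near-equal sums, is spread around a median of 0.11.

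Some related subunits differed in proportion from library to library. Grin2b made up 47.6% and 41.6% of the counts of Grin2a and Grin2b in the AD libraries and 53.2% and 49.9% in the AD/KO libraries, where the 95% Wilson interval of AD replicate 1 (43.2% to 52.1%) took in the share of AD/KO replicate 2. Gria1 made up 73.0% and 55.6% of the counts of Gria1 and Gria2 in AD and 63.7% and 69.1% in AD/KO, so the genotypes overlapped. Camk2b made up 20.1% and 26.7% of the counts of both kinase subunits in AD and 25.1% and 22.9% in AD/KO, again with overlap. Nefm made up 4.72% of the counts of Nefl and Nefm in AD replicate 1 and 11.5%, 10.6% and 10.8% in AD replicate 2 and AD/KO replicates 1 and 2. Gad2 held 38.1% and 36.2% of the counts of Gad1 and Gad2 in AD and 40.3% and 36.3% in AD/KO, and its 4 Wilson intervals overlapped. Pvalb, Sst and Npy together held 17.8% and 15.9% of the inhibitory counts in AD and 23.5% and 19.1% in AD/KO, with the interval of AD replicate 1 (13.7% to 22.8%) again around the share of AD/KO replicate 2. These shares are of reads, which longer transcripts collect more of, and serve only to compare libraries.

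Levels between genes are comparable only per length. Per kilobase of merged exons (GENCODE M21), the mean level over the 4 libraries was highest for Camk2a, at 155 CPM per kb, ahead of Camk2b at 62.4, Vamp2 at 56.4 and Snap25 at 56.1. Rbfox3 (50.1), Map2 (49.8), Grin1 (49.2) and Slc17a7 (44.9) came next on this scale, and these differences are small beside the spread between libraries. At the other end stood Slc17a6 with 0.791 CPM per kb, Nefm with 1.59, Gad2 with 2.78 and Npy with 3.05. In 10 of the 32 members an exon overlaps that of another gene, most in Syp (33.8% of its exon bases), Nefl with Nefm, Grin1 and Slc32a1. The use of strand in counting is not given in the sources used here, so reads of such pairs may be shared.

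Genes that work beside the members showed the same order of libraries. Of 89 coding partner genes, 87 were tested, 85 had a positive log2 fold change (47.2% of all genes tested) and 0 had an adjusted p below 0.05 by edgeR. The median was 1.36, 8 had an unadjusted p below 0.05, all higher in AD/KO (2.70% of all genes tested), and in 39 both AD/KO libraries were above both AD libraries (20.3%). In 83 of the 87, AD replicate 1 was lowest and AD/KO replicate 2 highest, as in 31.1% of all genes tested. The 2 with a negative value, Syngr1 (-0.23) and Basp1 (-0.02), are named because they were the exceptions, after their values were seen.

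By list, the median log2 fold change was 1.17 for 20 release genes, 1.48 for 21 excitatory genes tested of 22, 1.46 for 22 inhibitory genes, 1.53 for 8 granule genes tested of 9 and 1.17 for 16 genes of the cytoskeleton and membrane. The active-zone giant Bsn stood at 182 and 526 CPM in AD and at 431 and 1131 CPM in AD/KO, and Pclo at 120 and 547 CPM against 361 and 1063 CPM. Both overlapped, whereas the vesicle-priming factor Unc13a did not, at 75.8 and 242 CPM against 299 and 773 CPM. Of the postsynaptic proteins, Shank1 stood at 218 and 670 CPM in AD and at 758 and 1835 CPM in AD/KO, without overlap, and Shank3, with overlap, at 80.1 and 314 against 246 and 654.

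Among the inhibitory partners, Reln, a secreted protein of several neuron types, stood at 39.7 and 170 CPM in AD and at 82.8 and 244 CPM in AD/KO, and the potassium channel Kcnc1 at 50.3 and 235 CPM against 107 and 394 CPM. In Reln and Kcnc1, as in Rbfox3, AD replicate 2 was well above AD/KO replicate 1. Of the granule genes, the peptide-processing enzyme Cpe stood at 270 and 704 CPM in AD and at 903 and 2193 CPM in AD/KO, and Scg3 at 30 and 84.9 against 90.3 and 232, both without overlap. Chgb, chromogranin B, overlapped, at 12.8 and 63.2 CPM against 44.3 and 151 CPM. The cytoskeletal genes Mapt (log2 fold change 0.41) and Map1a (1.32) overlapped as well.

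All 6 non-coding RNAs of neurons on the list had a positive log2 fold change (median 1.66, 47.2% of all genes tested positive), and 5 of the 6 did not overlap (20.3%). Peg13, named after its values were seen, is counted among these but hardly differed (log2 fold change 0.12). It stood at 84.0 and 75.2 CPM in AD and at 86.8 and 86.6 CPM in AD/KO, which is not the order of the neuronal genes. Meg3, an imprinted long non-coding RNA, stood at 244 and 1096 CPM in AD and at 1570 and 4009 CPM in AD/KO. Snhg11 stood at 141 and 955 CPM in AD and at 871 and 2183 CPM in AD/KO, with overlap. Miat stood at 16.1 and 69.4 CPM in AD and at 164 and 477 CPM in AD/KO, and its log2 fold change was 2.91. Meg3 and Miat are known mainly as RNAs of the nucleus.

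Markers of other cells of the brain stood in the order of the neuronal genes in part, and in part in another. The 12 astrocyte markers summed to 1990 and 4734 CPM in AD and to 4926 and 12565 CPM in AD/KO, with 12 of 12 positive log2 fold changes, a median of 1.41 and 11 without overlap (20.3% of all genes tested). Slc1a2, the main glutamate transporter of astrocytes, stood at 1327 and 3108 CPM against 3235 and 8593 CPM, and Aldoc at 146 and 390 against 510 and 1161. The 15 microglial markers summed to 22154 and 15346 CPM in AD and to 22709 and 6767 CPM in AD/KO, so that the library with the most neuronal RNA held the least microglial RNA. Their median log2 fold change was -0.38, with 13 of 15 below 0. In AD/KO replicate 2 the 32 neuronal genes summed to 8580 CPM and the 15 microglial ones to 6767 CPM. These sums are not scaled to transcript length or to the number of genes, so they do not say which RNA was more abundant.

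The 10 oligodendrocyte markers summed to 1660 and 2671 CPM in AD and to 3949 and 8613 CPM in AD/KO (7 of 10 positive, median 0.44), led by Mbp at 910, 1324, 2504 and 5620 CPM and Mobp at 348, 524, 779 and 2002 CPM. The other 8 summed to 402, 823, 667 and 991 CPM, and Mag (-0.37), Mog (-0.42) and Opalin (-0.44), named after their values were seen, had negative log2 fold changes. Markers of oligodendrocyte precursors (6 genes) summed to 98.1, 271, 218 and 559 CPM in AD replicates 1 and 2 and AD/KO replicates 1 and 2. Endothelial markers (8 genes) summed to 43.9, 55.6, 42.7 and 63.9 CPM, mural markers (8) to 24.8, 47.6, 37.4 and 85.5 CPM and ependymal and choroid markers (6) to 18.1, 19.7, 15.4 and 36.4 CPM. As for the neuronal genes, the oligodendrocyte, precursor and mural sums were lowest in AD replicate 1 and highest in AD/KO replicate 2. The endothelial sum and the ependymal and choroid sum were lowest in AD/KO replicate 1. Of the ependymal and choroid markers, 3 were at 0 in AD replicate 1 (Folr1, Tmem212 and Ccdc153) and 1 in AD replicate 2. None of the endothelial, mural, astrocyte, oligodendrocyte or precursor markers was at 0 in any library.

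The blood-cell lists had other orders of libraries. For the 9 neutrophil markers the median log2 fold change was -2.12 and 9 of 9 were below 0, with Ngp at 81.9, 1363, 134 and 150 CPM and Ltf at 89.8, 1119, 128 and 150 CPM in AD replicates 1 and 2 and AD/KO replicates 1 and 2. Monocyte and border-macrophage markers (8) summed to 174, 166, 81.2 and 67.1 CPM, and lymphocyte markers (8, of which 3 were tested) to 11.3, 12.5, 9.54 and 4.67 CPM, with 1, 2, 0 and 2 of them at 0. Erythroid markers (5) summed to 871, 1723, 436 and 1991 CPM. The part of other cells, of the sort and of depth in the values of the neuronal genes was not tested.

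**Figure D5:**
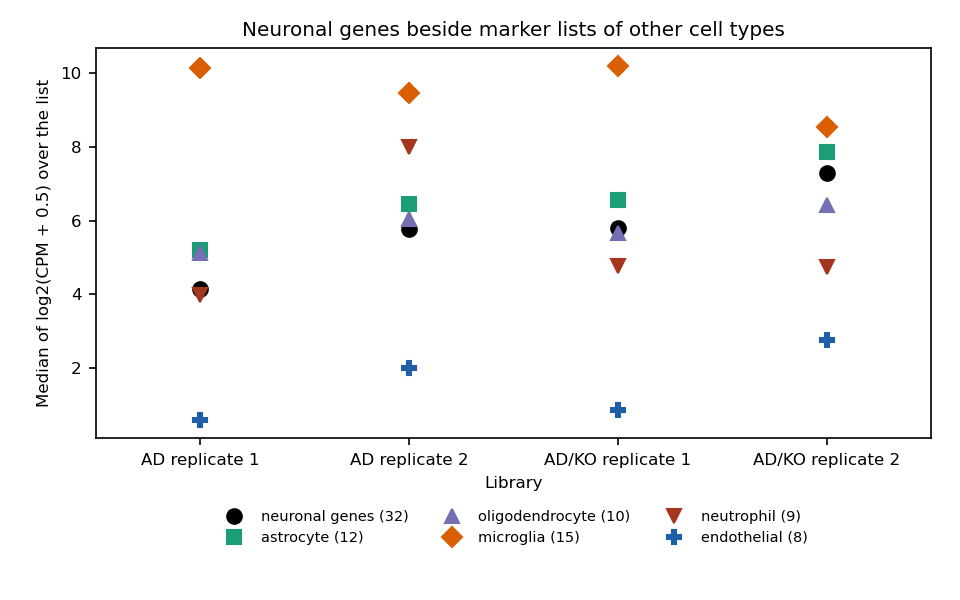
Median level, log2(CPM + 0.5), of the 32 neuronal genes and of marker lists of microglia, astrocytes, oligodendrocytes, endothelial cells and neutrophils in the 4 libraries, 1 point per list and library. Neuronal genes (4.13, 5.77, 5.80 and 7.30) and astrocyte markers share 1 order of libraries, microglial markers are lowest in AD/KO replicate 2, and neutrophil markers are highest in AD replicate 2.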

How the data were processed

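RNA was extracted with TRIzol from the sorted cells, ribosomal RNA was depleted and stranded libraries were built, per the labels' protocols. The authors deposited whole-number read counts per gene symbol, 1 table per library, with no normalization. FastQC, HISAT2, SAMtools, featureCounts from Subread, DESeq2 1.30.0 and the build mm10 are named in the submitters' processing notes, with no roles. The annotation, the use of strand and how multiply mapped reads were treated are not given in the sources used here. A further 11 lines per library held no count, so 4 genes (Bag6, Huwe1, Mycbp2 and Neb, none a member) were not analysed here. Columns that matched no sample numbered 0.

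Groups came from the sample titles. Counts were fitted with edgeR 4.0.16 in R 4.3.3: filterByExpr (minimum count 10, minimum total 15) kept 21439 genes, TMM factors (trimmed means of M values) scaled the libraries, and AD/KO was tested against AD with the quasi-likelihood F-test and Benjamini-Hochberg adjustment over all genes tested, at 0.05. Standard errors are the size of the log2 fold change over the root of F. CPM values use the same scaling. The biological coefficient of variation was 44.5%. DESeq2 1.42.0 was an alternative, and the fitting script was tested on simulated data. Symbols matched RefSeq for GRCm38.p6 (49993 of 49993), and lengths came from GENCODE M21.

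The members and lists were chosen with earlier results of these data known. Named were all members, Ociad1, the 3 genes of highest mean CPM in each partner list (release, excitatory, inhibitory, granule, cytoskeleton and non-coding) and up to 2 of highest mean CPM in each marker list of another cell type; some genes that this rule names are not reported here. Alternatives were DESeq2, its size factors, scaling to 15 homeostatic microglial genes, no filter, a mean of at least 1 CPM, protein-coding genes only, a replicate block, each library left out, and other sums for the group levels and ratios.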

Additional observations from a re-analysis of the deposited data

How the results depend on the processing

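The count of neuronal genes with an adjusted p below 0.05 was 0 and ran from 0 to 6 over the fits that left out 1 library, with 6 without AD replicate 2. A lone library was there taken to vary like the other group. With a replicate block, 32 of 32 passed (adjusted p 0.00217 to 0.0318, edgeR), beside 20.2% of all genes tested. The labels do not say that equal numbers pair libraries, with 2 pairs the data cannot settle it (r = 0.68 between the deviations of same-numbered libraries over 21439 genes), and the block result is not a finding. Under the other alternatives the count stayed at 0.

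The median log2 fold change over all members ran from 0.61 to 2.61 when 1 library was left out, that of the excitatory genes from 0.73 to 2.79 (2.79 without AD replicate 2) and that of the inhibitory genes from 0.90 to 2.66. Scaling to homeostatic microglial genes gave medians of 2.70, 2.69 and 2.95, but moved the median of all genes to 0.82. Of 352 log2 fold changes of members under alternatives, 351 were positive; that of Rbfox3 was -0.14 without AD/KO replicate 2. The difference in the log2 ratio of inhibitory to excitatory counts, 0.15, became -0.03 with medians in place of sums, 0.00 with transporters and enzymes only, and 0.36 with counts per transcript length. Of the members, Npy had the fewest counts, and depth limits it most.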

Other observations

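Genes that mark regions of the brain differed in how they stood in AD/KO replicate 1 against AD replicate 2. These lists were drawn up after the members' values were seen, so the values are a description with no test. For 10 genes of the cerebellum the median log2 ratio of AD/KO replicate 1 over AD replicate 2 was -1.03, beside 0.11 for the 32 neuronal genes. It was 0.37 for 9 genes of the forebrain and 0.16 for 6 genes of the striatum. The cerebellar genes summed to 156 and 778 CPM in AD and to 286 and 948 CPM in AD/KO, and both AD/KO libraries were above both AD libraries in 1 of the 10 (20.3% of all genes tested). The forebrain genes summed to 86.1 and 165 CPM in AD and to 180 and 451 CPM in AD/KO, with 8 of 9 in that order (3 of the 9 also stand in the list of excitatory partners), and the striatal genes to 22.6, 62.8, 76.1 and 244 CPM, with 4 of 6.

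Fat2, a cadherin of cerebellar granule cells, stood at 85.9 and 506 CPM in AD and at 155 and 538 CPM in AD/KO. Gabra6, a GABA receptor subunit of the same cells, stood at 5.37 and 27.5 CPM in AD and at 7.98 and 30.2 CPM in AD/KO. Grin2c, an NMDA receptor subunit found there, stood at 59.6 and 356 CPM in AD and at 121 and 432 CPM in AD/KO, whereas its relative Grin2b did not overlap between genotypes. Fat2, Gabra6 and Grin2c are named after their values were seen. In the log2 ratio of AD/KO replicate 1 over AD replicate 2, Gabra6 (-1.79) and Fat2 (-1.71) were the lowest of the cerebellar list. Pcp2 (0.14) was the highest of that list and went the other way. Grin2c (-1.56) was the lowest of the excitatory partners. The brain regions taken for each library are not given in the sources used here.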
